A study of Mus musculus with 13 samples.

Results

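The membrane arm of respiratory complex I contains 7 subunits whose genes lie on mitochondrial DNA: mt-Nd1, mt-Nd2, mt-Nd3, mt-Nd4, mt-Nd4l, mt-Nd5 and mt-Nd6. These genes were examined together with Gm28438, a nuclear pseudogene on chromosome 1 whose sequence matches mt-Nd3 almost entirely, so that 8 of the 36158 genes in the transcript lists were followed. They were chosen by what they encode, and Gm28438 by its likeness to mt-Nd3, with earlier results of these data known. RNA-sequencing was available for 13 libraries from young mice kept in room air: aortic endothelial cells (ECs) of 3 Hmox2+/+ and 3 Hmox2-/- mice (EC WT 1 to 3, EC KO 1 to 3), and heart tissue of 4 Hmox2+/+ and 3 Hmox2-/- mice (heart WT 1 to 4, heart KO 1 to 3). Hmox2 encodes heme oxygenase 2, which breaks down heme and is studied in oxygen sensing. The Hmox2-/- mice carried the deletion in both tissues, the controls were described as littermates, and the sex of the mice was not stated. EC RNA was flushed from the lumen of the aorta with a lysis reagent and heart RNA came from pulverized whole hearts with another kit, so tissue and extraction cannot be told apart. The labels number the replicates but do not say that each came from its own mouse, so the tests measure the spread between these libraries. The record calls the EC and heart samples a matched pair, but which EC and heart libraries came from the same mouse was not given, and all were treated as independent.

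Complex I (NADH:ubiquinone oxidoreductase) takes electrons from NADH, passes them to ubiquinone and pumps protons out of the mitochondrial matrix. Its matrix arm is built from nuclear-encoded subunits, while the proton-pumping membrane arm depends on the mitochondrially encoded subunits, so that the enzyme needs transcripts from both genomes. Mitochondrial DNA is inherited from the mother, is copied into long RNAs from both strands and is cut into mRNAs largely at the tRNAs between them. Among the mRNAs only mt-Nd6 is encoded on the light strand. The heart, which relies on oxidative metabolism, is especially rich in mitochondria.

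On the GRCm39 mitochondrial genome of 16299 bases the genes follow one another as mt-Nd1 (M:2751-3707), mt-Nd2 (M:3914-4951), mt-Nd3 (M:9459-9806), mt-Nd4l (M:9877-10173), mt-Nd4 (M:10167-11544) and mt-Nd5 (M:11742-13565) on the plus strand, and mt-Nd6 (M:13552-14070) on the minus strand. Each was represented by 1 transcript, between 297 bases (mt-Nd4l) and 1824 bases (mt-Nd5) long. mt-Nd4l and mt-Nd4 are carried on 1 mRNA, in which the coding sequences share 7 bases, and mt-Nd5 and mt-Nd6 share 14 bases on opposite strands. The authors' program assigns reads by words, runs of 31 bases, which are longer than both overlaps. mt-Nd4l, mt-Nd4, mt-Nd5 and mt-Nd6 share no such word with another mitochondrial mRNA. This compares the annotated spans only. The program was run without using the strand, so RNA copied from the opposite strand over mt-Nd6 would be counted with mt-Nd6. Both junctions are shown on the plus strand with the shared bases in capitals.
mt-Nd4l to mt-Nd4 (M:10154-10186): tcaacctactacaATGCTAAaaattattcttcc
mt-Nd5 to mt-Nd6 (M:13539-13578): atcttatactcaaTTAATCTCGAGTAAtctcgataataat

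Gm28438 (1:24651856-24652200, minus strand of GRCm39, annotated as a transcribed unprocessed pseudogene) lies in a block of chromosome 1 that holds copies of 7 mitochondrial mRNAs. Over the 345 bases that it shares with mt-Nd3 it differs at a single base, T3C counted from 1 at the first base of the mt-Nd3 transcript. This base is at position 9461 of mitochondrial DNA and at position 24652198 of chromosome 1. The first 60 bases of both transcripts are shown in transcript direction with that base in capitals, because every read that tells the genes apart at this end must cover it.
mt-Nd3 (M:9459-9518): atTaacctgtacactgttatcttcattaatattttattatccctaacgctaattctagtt
Gm28438 (1:24652141-24652200): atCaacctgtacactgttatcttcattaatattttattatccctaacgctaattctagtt
At the other end mt-Nd3 has 3 more bases, in capitals below, which Gm28438 lacks.
mt-Nd3 (M:9777-9806): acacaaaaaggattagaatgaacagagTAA
Gm28438 (1:24651856-24651882): acacaaaaaggattagaatgaacagag
Of the 315 words of 31 bases in Gm28438, 312 are also in mt-Nd3. The authors' pseudoalignment program assigns reads by such words, so the split of counts between the pair rested on the reads that reached these ends. Other members also had nuclear copies. Gm10222 held 98.9% of the words of mt-Nd4l and Gm28439 held 62.8% of those of mt-Nd4, but both were listed at 0 in all 13 libraries. Nuclear genes held 16.8% of the words of mt-Nd5, 13.5% of mt-Nd2, 7.36% of mt-Nd6 and none of mt-Nd1.

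The libraries held 26067147 to 31619776 estimated counts, except heart WT 1 with 7268626. Hmox2 checked the labels. It was at 63.9 to 76.2 CPM (counts per 1000000, scaled between libraries by TMM, the trimmed mean of M-values) in ECs of Hmox2+/+ mice and at 12.6 to 14.7 CPM in those of Hmox2-/- mice. In heart tissue it was at 37.3 to 42.5 CPM against 7.53 to 8.90 CPM. The Y-linked gene Ddx3y was at 37.0 to 86.5 CPM in 11 libraries, whereas EC KO 2 had 1.03 and EC KO 3 had 0.919 CPM. By this gene the sexes were not balanced between the genotypes in ECs. The part of sex in the EC and interaction results was not tested. The heart libraries carried the cardiomyocyte markers at 75040 to 86075 CPM summed over 12 genes. The EC libraries carried endothelial markers at 2433 to 5111 CPM summed over 11 genes, and also adipocyte markers at 3061 to 4991 CPM summed over 6 genes, among them the brown fat uncoupling protein Ucp1 at 1340 to 2712 CPM. In such bulk samples, fewer cells of a type and less RNA per cell cannot be told apart.

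In heart tissue all 7 mt-Nd mRNAs were lower in Hmox2-/- than in Hmox2+/+ mice, by 1.53-fold for mt-Nd1 to 3.61-fold for mt-Nd3, whereas in ECs none passed edgeR's test (33.4% of all genes were called in heart tissue and 18.1% in ECs). DESeq2, another count model, called mt-Nd3 lower in ECs (-0.73 on the log2 scale, adjusted p = 0.00216). For mt-Nd3 this held only while Gm28438 was counted apart from it. The counts listed under Gm28438 were close to 0 in every Hmox2+/+ library and at 55820 or more in every Hmox2-/- library of both tissues. As a share of all estimated counts the 8 genes made up 13.1%, 11.2%, 14.4% and 14.2% in heart WT 1 to 4 and 5.96%, 6.85% and 7.48% in heart KO 1 to 3. No heart KO library reached the lowest heart WT library. The mean fell from 13.2% ± 1.48 (SD, n = 4) to 6.76% ± 0.763 (SD, n = 3), a ratio of 0.511 (exact permutation test, two-sided, p = 0.0286, the smallest that 4 against 3 libraries allow, and 0.0571 after Benjamini-Hochberg adjustment over the 4 share tests). In ECs the share was 7.76%, 4.79% and 5.35% in EC WT 1 to 3 and 6.12%, 8.18% and 6.99% in EC KO 1 to 3. These ranges overlapped, with means of 5.97% ± 1.58 and 7.10% ± 1.03 (SD, n = 3 each, exact permutation p = 0.3, adjusted p = 0.3), and 3 against 3 libraries cannot give a p below 0.1.

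The complex I mRNAs also took a smaller part of the mitochondrial mRNA in the hearts of Hmox2-/- mice. Of the counts of the 13 mitochondrially encoded mRNAs and Gm28438, the 8 genes held 32.5%, 30.04%, 32.9% and 33.2% in heart WT 1 to 4 and 26.2%, 25.7% and 27.5% in heart KO 1 to 3. The groups did not overlap, and the means were 32.1% ± 1.43 (SD, n = 4) and 26.5% ± 0.922 (SD, n = 3) (exact permutation p = 0.0286, adjusted p = 0.0571). In ECs the values were within 24.95% to 25.5% in Hmox2+/+ and 25.2% to 26.4% in Hmox2-/- mice (exact permutation p = 0.2, adjusted p = 0.267). That small difference of 0.55 percentage points became -0.23 when Gm28438 was left out. The 13 mRNAs and Gm28438 together made up 37.3% to 43.9% of all counts in heart WT and 22.8% to 27.2% in heart KO libraries, against 19.2% to 30.5% in EC WT and 24.3% to 31.03% in EC KO libraries.

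Gm28438 gave the clearest separation of the genotypes, with 0, 255 and 0.621 estimated counts in EC WT 1 to 3 and 84375, 91454 and 55820 in EC KO 1 to 3. In heart tissue it had 4.67, 92.1, 0.000348 and 0.000448 counts in heart WT 1 to 4 and 131943, 83500 and 75387 in heart KO 1 to 3. Both genotypes thus lay far apart in both tissues. Gm28438 entered the tests only through the Hmox2-/- libraries, so that a difference was given by its passing the filter. Its fitted log2 fold change (9.96 in ECs and 11.41 in heart tissue) depended on the few Hmox2+/+ counts, and lay between 9.37 and 17.03 in ECs and between 10.91 and 14.99 in heart tissue when single libraries were left out.

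mt-Nd3, whose subunit carries the loop that becomes exposed when the enzyme turns inactive, went the other way. It stood at 3373, 2234 and 2231 CPM in EC WT 1 to 3 and at 1464, 1700 and 1580 CPM in EC KO 1 to 3. In heart WT 1 to 4 it stood at 3928, 2678, 4277 and 4736 CPM and in heart KO 1 to 3 at 1922, 701 and 620 CPM. Every Hmox2-/- library was below every Hmox2+/+ library of its tissue, as in 18.7% of all genes tested in ECs and 19.8% in heart tissue, and heart KO 1 was well above the other KO hearts. Within the pair, Gm28438 held 67.1%, 67.3% and 56.5% of the counts in EC KO 1 to 3 and 66.9%, 78.3% and 78.4% in heart KO 1 to 3. It held at most 0.38% in any Hmox2+/+ library.

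Once both genes were summed, the lower level of mt-Nd3 was no longer seen. The sum was 3373, 2243 and 2231 CPM in EC WT 1 to 3 and 4452, 5203 and 3633 CPM in EC KO 1 to 3, where every KO library was now above every WT library. In heart tissue it was 3928, 2681, 4277 and 4736 CPM against 5798, 3227 and 2875 CPM, and the groups overlapped. By edgeR's quasi-likelihood test with Benjamini-Hochberg adjustment over all genes, mt-Nd3 alone had a log2 fold change of -0.72 in ECs (SE 0.24, adjusted p = 0.0739) and of -1.85 in heart tissue (SE 0.36, adjusted p = 0.00372). The sum had 0.76 in ECs (SE 0.28, adjusted p = 0.0940) and 0.022 in heart tissue (95% interval -0.50 to 0.55, adjusted p = 0.954). The direction for mt-Nd3 thus depended on whether Gm28438 was counted with it. The tables hold no reads, and transcription of the pseudogene and mitochondrial RNA with a C at this base cannot be told apart here.

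**Figure D1:**
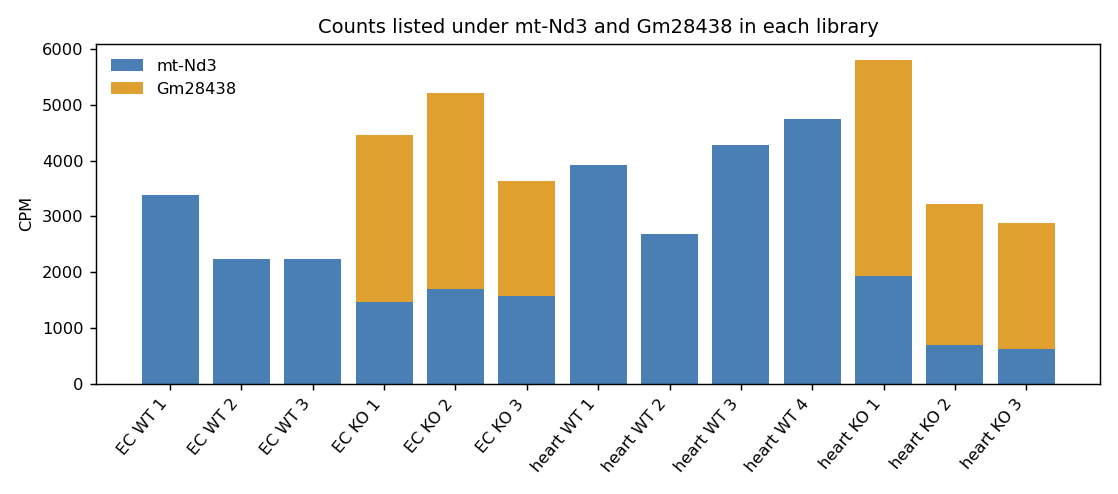
Each bar is 1 library, and its height is the CPM listed under mt-Nd3 (blue) plus that under Gm28438 (orange). The orange part was visible in each of the 6 Hmox2-/- libraries, at 2053 to 3876 CPM, and was at most 8.52 CPM in the 7 Hmox2+/+ libraries.

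No other copy of the chromosome 1 block separated the genotypes in the same direction in both tissues. Gm28439 and Gm10222, the copies of mt-Nd4 and mt-Nd4l beside Gm28438, were listed at 0 throughout. Gm29216, a copy of part of mt-Co1, had 51556 to 278934 estimated counts in Hmox2+/+ libraries and 100178 to 391911 in Hmox2-/- libraries. Gm28661, a copy of mt-Co2, was higher in ECs of Hmox2-/- mice (35286 to 227122 against 169 to 3359 counts), but in heart tissue its range of 5124 to 208988 counts overlapped that of Hmox2+/+ mice, 2072 to 114518. Gm28437, a copy of mt-Co3, overlapped in ECs (5504 to 24507 counts in Hmox2+/+ and 458 to 7246 in Hmox2-/- mice), but in heart tissue it was higher without overlap in Hmox2-/- mice, at 1893 to 63014 counts against 92.3 to 1470. Atp6-ps, a copy of mt-Atp6, had at most 8.12 counts in any heart library.

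In heart tissue the fit over 13818 genes called 33.4% of them at an adjusted p of at most 0.05, and 16.2% called lower. All 7 mt-Nd genes were called lower there, and 6 of them when every gene was summed with its copies. Gm28438 was called higher, which its passing the filter had given. With the study's further criterion of a 2-fold change, 4.05% of genes were lower and 6 of the 7 mt-Nd genes were among them. The median log2 fold change of the 7 genes was -1.59, against -0.01 over all genes tested.

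mt-Nd4, mt-Nd5 and mt-Nd2 encode the antiporter-like subunits that form the proton channels of the membrane arm. mt-Nd4 made up 4.09%, 3.54%, 4.63% and 4.59% of all counts in heart WT 1 to 4 and 1.26%, 1.72% and 1.81% in heart KO 1 to 3. mt-Nd5 made up 2.85%, 2.37%, 3.07% and 2.92% in heart WT and 0.788%, 1.15% and 1.44% in heart KO libraries. mt-Nd2 made up 2.26%, 1.92%, 2.72% and 2.58% against 1.17%, 1.25% and 1.36%. None of these ranges overlapped, and heart KO 1 was the lowest library for each of the 3 genes. The log2 fold change was -1.67 for mt-Nd4 (SE 0.16, adjusted p = 5.68e-05), -1.59 for mt-Nd5 (SE 0.19, adjusted p = 2.42e-04) and -1.18 for mt-Nd2 (SE 0.14, adjusted p = 2.80e-04). The interval of mt-Nd2, -1.498 to -0.86, overlapped that of mt-Nd4, -2.02 to -1.31.

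The small subunits mt-Nd4l and mt-Nd6 are embedded in the membrane arm between the larger ones. mt-Nd4l made up 0.488%, 0.464%, 0.513% and 0.430% of all counts in heart WT 1 to 4 and 0.0910%, 0.196% and 0.262% in heart KO 1 to 3. mt-Nd6 made up 0.719%, 0.592%, 0.761% and 0.819% in heart WT and 0.315%, 0.357% and 0.366% in heart KO libraries. Both genes separated the genotypes without overlap. For mt-Nd4l the spread among the KO hearts was wide, with heart KO 1 lowest, whereas the KO hearts lay close together for mt-Nd6. The log2 fold change was -1.64 for mt-Nd4l (SE 0.28, adjusted p = 0.00186) and -1.33 for mt-Nd6 (SE 0.14, adjusted p = 1.05e-04).

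mt-Nd1, the subunit at the heel of the enzyme where ubiquinone enters, changed least of the mt-Nd genes as long as mt-Nd3 was counted apart from Gm28438. It made up 2.29%, 2.07%, 2.37% and 2.48% of all counts in heart WT 1 to 4 and 1.68%, 1.83% and 1.92% in heart KO 1 to 3, again without overlap. Its log2 fold change was -0.61 (SE 0.11, 95% interval -0.86 to -0.37, adjusted p = 0.00269), an interval that touched that of mt-Nd2 to 2 decimals and lay above those of the other mt-Nd genes. With all 13 libraries in 1 fit the adjusted p of mt-Nd1 was 0.100. In CPM, every heart KO library was below every heart WT library for each of the 7 genes, the pattern of 19.8% of all genes.

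**Figure D2:**
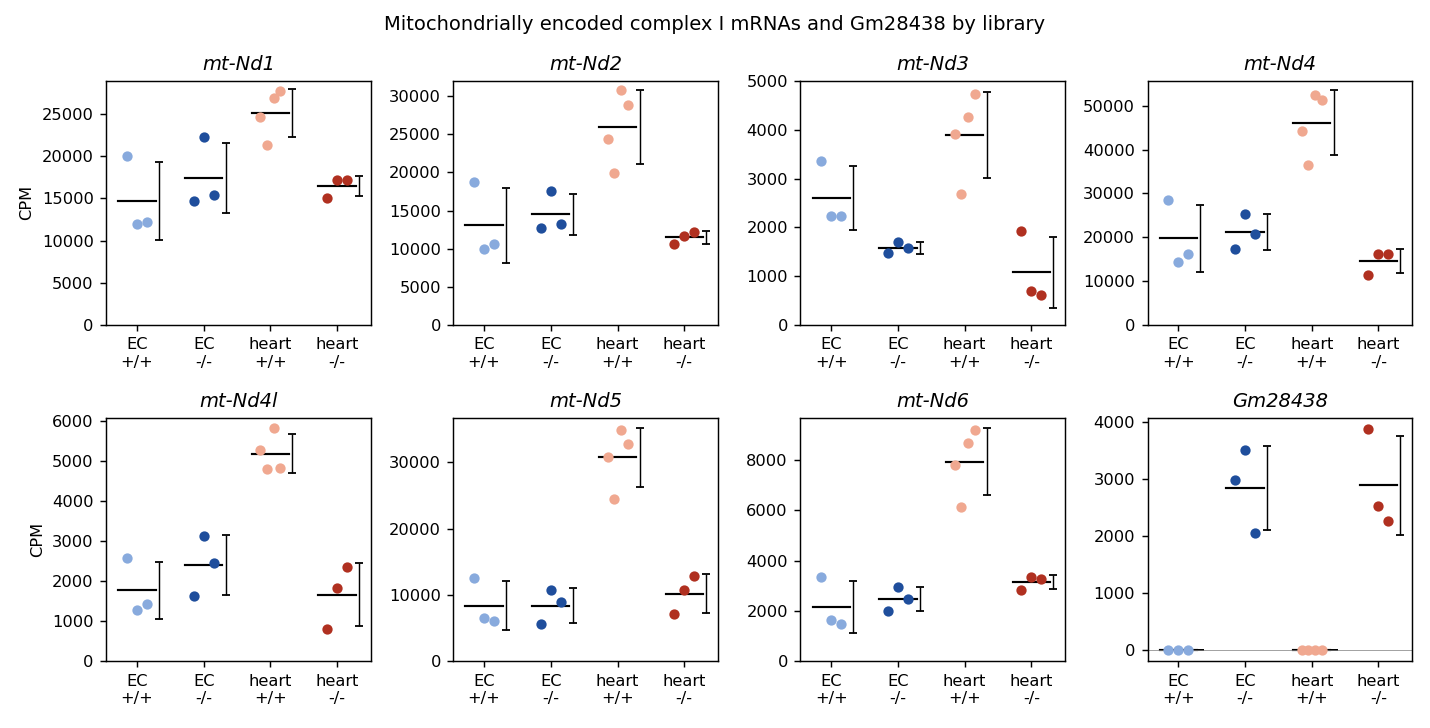
Each panel shows 1 gene, with 1 point per library in CPM on a linear axis, a line at the group mean and a bar of 1 SD beside it. In heart tissue the dark points (Hmox2-/-) lie below the light points (Hmox2+/+) for the 7 mt-Nd genes, the EC groups overlap except for mt-Nd3, and Gm28438 is visibly above 0 only in Hmox2-/- libraries.

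In ECs the fit over 15303 genes called 18.1% of them, and Gm28438 was the single member called by edgeR. Apart from mt-Nd3, the mt-Nd genes had log2 fold changes from -0.00042 for mt-Nd5 to 0.44 for mt-Nd4l, with adjusted p of 0.402 to 0.999. The intervals were wide: that of mt-Nd4 ran from -0.88 to 1.08, that of mt-Nd1 from -0.65 to 1.15 and that of mt-Nd4l from -0.38 to 1.27. mt-Nd4 made up 2.49%, 1.44% and 1.73% of all counts in EC WT 1 to 3 and 1.81%, 2.38% and 2.17% in EC KO 1 to 3. mt-Nd5 made up 1.10%, 0.656% and 0.645% against 0.585%, 1.01% and 0.929%. The other genes overlapped likewise, mt-Nd1 at 1.19% to 1.74% in EC WT and 1.55% to 2.09% in EC KO libraries, mt-Nd2 at 0.986% to 1.63% and 1.33% to 1.65%, mt-Nd4l at 0.129% to 0.225% and 0.172% to 0.294%, and mt-Nd6 at 0.159% to 0.290% and 0.212% to 0.276%. EC WT 1 and EC KO 2 were the highest libraries of their groups for both genes, and also for mt-Nd1, mt-Nd2 and mt-Nd6. Ucp1 was highest in the same EC WT library (2462 CPM against 1753 and 1370) and the same EC KO library (2712 CPM against 1340 and 2535). The summed adipocyte markers were also highest in EC WT 1 and EC KO 2 within their groups. Adipoq, another adipocyte gene, was highest in EC WT 1 among the EC WT libraries. Among the EC KO libraries it went the other way and was lowest in EC KO 2. The part of these markers in the mitochondrial values was not tested.

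Whether the genotype difference itself differed between tissues was tested as an interaction over all 13 libraries. Of 15911 genes, 28.9% were called and 12.7% called with a lower genotype log2 fold change in heart tissue than in ECs. Among the members 5 were called, each in that direction. The difference of log2 fold changes (heart tissue minus ECs) was -2.04 for mt-Nd4l (SE 0.50, adjusted p = 0.00862), -1.72 for mt-Nd4 (SE 0.43, adjusted p = 0.00978) and -1.49 for mt-Nd6 (SE 0.39, adjusted p = 0.0128). It was -1.54 for mt-Nd5 (SE 0.48, adjusted p = 0.0267) and -1.29 for mt-Nd2 (SE 0.40, adjusted p = 0.0262). mt-Nd1 (-0.82, adjusted p = 0.113), mt-Nd3 (-1.09, adjusted p = 0.110) and Gm28438 (1.503, adjusted p = 0.522) did not pass. The calls of both mt-Nd2 and mt-Nd5 were lost when EC WT 2, EC KO 2, heart WT 3, heart KO 1 or heart KO 2 was left out, mt-Nd2 also without heart WT 4 and mt-Nd5 without EC KO 3. mt-Nd1 passed with DESeq2 (-0.81, adjusted p = 0.0183). By edgeR mt-Nd1 passed without EC WT 1 (-1.10, adjusted p = 0.0234) and mt-Nd3 without heart KO 1 (-1.79, adjusted p = 0.00382).

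**Figure D3:**
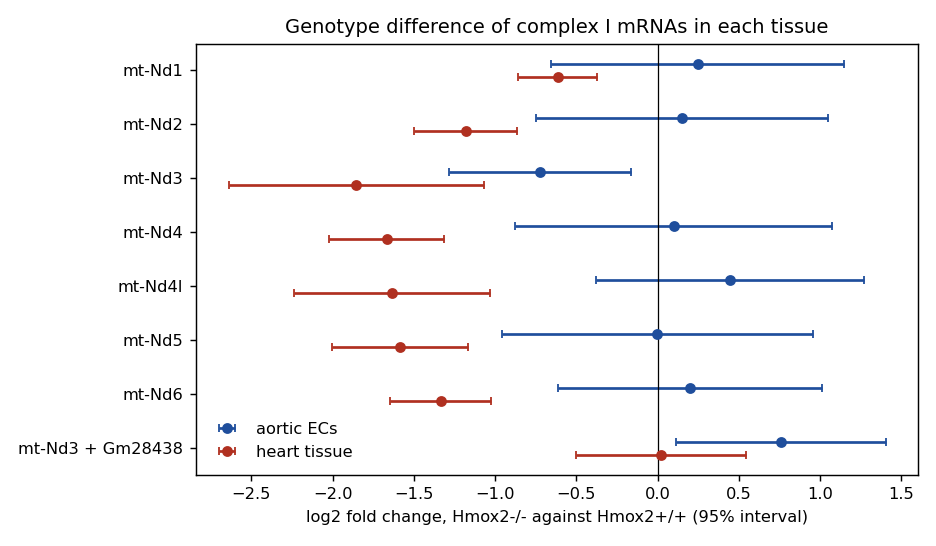
Points are log2 fold changes of Hmox2-/- against Hmox2+/+ mice from edgeR, with 95% intervals, in aortic ECs (blue) and heart tissue (red), for the 7 mt-Nd genes and for mt-Nd3 and Gm28438 summed. The red intervals of the 7 genes lie below 0 and those of the sum cross it, while the blue intervals cross 0 except for mt-Nd3 and for the sum.

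To see which members fell more than mitochondrial mRNA as a whole, each library was scaled to its mitochondrial counts instead of to all genes. In heart tissue this scaling moved the median log2 fold change of all genes from -0.01 to 0.94 and called 81.6% of genes, of which 1.45% of all tested were called lower and 80.1% higher. Among the mt-Nd genes 5 were called lower: mt-Nd4 (-0.72, SE 0.15, adjusted p = 1.22e-04), mt-Nd5 (-0.65, SE 0.16, adjusted p = 8.35e-04), mt-Nd4l (-0.72, SE 0.21, adjusted p = 0.00296), mt-Nd6 (-0.37, SE 0.16, adjusted p = 0.0391) and mt-Nd3 (-0.80, SE 0.28, adjusted p = 0.0113). mt-Nd1 was called higher (0.34, SE 0.15, adjusted p = 0.0349), and mt-Nd2 was not called (-0.21, adjusted p = 0.197). The sum of mt-Nd3 and Gm28438 was higher by 1.04 (SE 0.22, adjusted p = 1.06e-04), so the direction for mt-Nd3 turned with the treatment of its copy. The calls of mt-Nd1 and mt-Nd6 were lost when heart WT 1, 3 or 4 or heart KO 2 or 3 was left out, as was that of mt-Nd3 without heart KO 2, where 4 members remained. With the replicate number as a block the calls of mt-Nd1 (adjusted p = 0.0599) and mt-Nd6 (adjusted p = 0.148) were lost too.

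As percent of the mitochondrial counts, mt-Nd4 went from 10.2%, 9.48%, 10.5% and 10.7% in heart WT 1 to 4 to 5.55%, 6.45% and 6.67% in heart KO 1 to 3. mt-Nd5 went from 7.08%, 6.35%, 6.99% and 6.81% to 3.46%, 4.30% and 5.29%. mt-Nd1 went the other way, from 5.68%, 5.54%, 5.40% and 5.78% to 7.40%, 6.88% and 7.04%. The groups did not overlap for any of these 3 genes. These shares are parts of a total of 100%, so the share of mt-Nd1 can rise while its level falls. With all genes as the scale mt-Nd1 was lower in heart tissue (-0.61). By gene order, mt-Nd4l, mt-Nd4, mt-Nd5 and mt-Nd6, which follow one another, were called lower. mt-Atp8 (-0.40, adjusted p = 0.0634), mt-Nd2 and mt-Co1 (-0.14, adjusted p = 0.341) were also below 0 without being called. The 3 genes before mt-Nd4l, namely mt-Atp6, mt-Co3 and mt-Nd3 with its copy, were higher (mt-Co3 0.66, SE 0.14, adjusted p = 1.51e-04, and mt-Atp6 0.42, SE 0.15, adjusted p = 0.0115). mt-Cytb, the last gene, was at -0.040 (adjusted p = 0.800). Nuclear copies hold 99.9% of the words of mt-Co3, 99.5% of those of mt-Atp6 and 63.9% of those of mt-Co1. Of the copies only Gm28438 was part of the mitochondrial counts. The mt-Co1 value above leaves out the counts listed under its copy Gm29216. Over 10 other settings, copies summed among them, mt-Co3 stayed at 0.59 to 0.70 and mt-Atp6 at 0.34 to 0.46. Both kept their calls in each of these, whereas the direction for mt-Nd3 turned with its copy. With all genes as the scale, the 6 other mitochondrial mRNAs were all called lower in heart tissue, with a median log2 fold change of -0.97, from -0.30 for mt-Co3 (adjusted p = 0.0328) and -0.55 for mt-Atp6 (adjusted p = 0.00462) to -1.40 for mt-Atp8. The call of mt-Co3 was lost with no filter (adjusted p = 0.123), with all libraries in 1 fit (adjusted p = 0.438) and without heart WT 1, 3 or 4 or heart KO 2, and mt-Atp6 was not called in that 1 fit either (adjusted p = 0.145). With the replicate number as a block neither gene was called on this scale (adjusted p of 0.202 for mt-Co3 and 0.0524 for mt-Atp6).

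In ECs the same scaling called 9% of all genes and no mt-Nd gene. mt-Nd3 came nearest, at -0.89 (SE 0.34, adjusted p = 0.0821), and its sum with Gm28438 was at 0.59 (SE 0.32, adjusted p = 0.308). The other 6 mt-Nd genes lay between -0.15 for mt-Nd5 and 0.29 for mt-Nd4l.

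**Figure D4:**
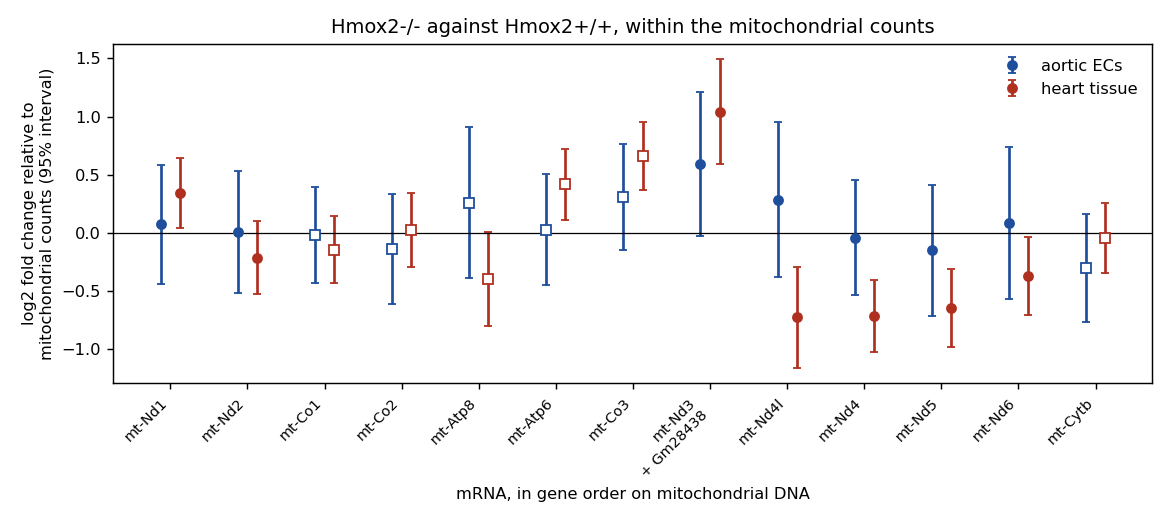
Points are log2 fold changes of Hmox2-/- against Hmox2+/+ mice with each library scaled to its mitochondrial counts, with 95% intervals, for the 13 mRNAs in gene order (filled circles, complex I genes, with mt-Nd3 summed with Gm28438; open squares, other mRNAs). In heart tissue (red) the values rise to 1.04 at mt-Nd3 with Gm28438 and drop to -0.72 at the next gene, mt-Nd4l, whereas the EC intervals (blue) all include 0.

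Levels can be compared between genes per transcript length, as TPM (transcripts per 1000000, a deposited value). In heart WT libraries mt-Nd4l had the highest mean TPM of the mt-Nd genes, 39941 ± 2739 (SD, n = 4), followed by mt-Nd4, mt-Nd1, mt-Nd2, mt-Nd6 and mt-Nd3, with mt-Nd5 last at 16903 ± 1122. Neighbours in this order overlapped in their ranges except mt-Nd2 (23687 to 29882) and mt-Nd6 (18414 to 23684). In heart KO libraries mt-Nd1 came first at 24108 ± 3051 (SD, n = 3) and every pair of neighbours overlapped. In ECs mt-Nd1 was first and mt-Nd5 last in both genotypes, at 19461 ± 2677 and 5194 ± 1310 TPM in Hmox2+/+ and at 23111 ± 2976 and 5254 ± 1291 TPM in Hmox2-/- mice (SD, n = 3 each). This order counts mt-Nd3 apart from Gm28438. Summed, the pair had means of 27448 TPM in EC KO and 26634 TPM in heart KO libraries, above those of mt-Nd1. Between the first and the last gene the EC WT libraries separated only mt-Nd4l from mt-Nd6 among neighbours, while the EC KO libraries separated mt-Nd2, mt-Nd3, mt-Nd6 and mt-Nd5 from one another.

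The ratio of mt-Nd5 to mt-Nd1 in TPM was 0.589, 0.542, 0.612 and 0.557 in heart WT 1 to 4 and 0.221, 0.296 and 0.355 in heart KO 1 to 3, without overlap. The means were 0.575 and 0.291 (exact permutation p = 0.0286, 0.15 after adjustment over 6 ratio tests). The ratio was 0.264 and 0.227 in ECs of Hmox2+/+ and Hmox2-/- mice (exact permutation p = 0.4, adjusted p = 0.48). The 2 genes that share 1 mRNA kept a like ratio in heart tissue, mt-Nd4l to mt-Nd4 being 1.16 and 1.12 on average, but heart KO 1 (0.732) and heart KO 3 (1.47) were the lowest and the highest of the 7 hearts. In ECs it was 0.910 in Hmox2+/+ and 1.14 in Hmox2-/- mice, without overlap (exact permutation p = 0.1, the smallest possible, adjusted p = 0.15). The ratio of mt-Nd6 to mt-Nd5 was 1.23 and 1.47 in ECs, without overlap (exact permutation p = 0.1, adjusted p = 0.15). In heart tissue it was 1.25 and 1.56, with overlap (exact permutation p = 0.0571, adjusted p = 0.15). RNA from the opposite strand over mt-Nd6 could not be told apart from mt-Nd6 in this ratio.

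The nuclear-encoded part of complex I moved in the opposite direction to the mt-Nd genes in heart tissue. Of 37 listed nuclear subunits 36 were tested, and 32 were called higher and none lower in hearts of Hmox2-/- mice (17.2% of all genes were called higher), with a median log2 fold change of 0.61 against -0.01 over all genes. Ndufb2 (1.04, SE 0.20, adjusted p = 0.00385), Ndufb8 (1.04, SE 0.19, adjusted p = 0.00259) and Ndufb4 (0.95, SE 0.18, adjusted p = 0.00363), accessory subunits of the membrane arm, had the largest changes. Of the factors that assemble the enzyme, 11 of 17 tested were called higher, led by Ndufaf6 (0.83), Ndufaf3 (0.75) and Ndufaf5 (0.72), which act on early membrane or matrix arm intermediates. In ECs 12 of 36 nuclear subunits were called, all lower (8.06% of all genes were called lower), with a median of -0.56. The largest changes were those of Ndufa10 (-0.98, SE 0.22, adjusted p = 0.0250), Ndufv3 (-0.92, SE 0.18, adjusted p = 0.0156) and Ndufb8 (-0.86, SE 0.21, adjusted p = 0.0314). This count depended on single libraries, being 28 without EC WT 3, 5 without EC KO 2, 3 without EC WT 2, 1 without EC WT 1 or EC KO 1 and 0 without EC KO 3. None of the 17 assembly factors was called in ECs by edgeR. In the interaction test 35 of 36 nuclear subunits were called, where 28.9% of all genes were called. For each of the 35 the genotype log2 fold change was higher in heart tissue than in ECs.

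Markers of cell types were also compared between the genotypes. Over all genes tested in ECs, 18.1% were called and 8.06% called lower. In heart tissue 17.2% were called higher and 16.2% lower. In ECs 11 of 12 cardiomyocyte markers were called lower, at 134 to 459 CPM summed in Hmox2+/+ and 10.3 to 13.8 CPM in Hmox2-/- mice, with Myl2 and Myh6 at 12.8 to 116 and 25.8 to 78.1 CPM against at most 0.268 and 0.421 CPM. Smooth muscle markers summed to 2461 to 4754 CPM against 769 to 2648 CPM, with 3 of 6 called lower, a count of 0 to 6 when single libraries were left out. The endothelial markers were higher in Hmox2-/- ECs, at 4209 to 5111 against 2433 to 3554 CPM, with 5 of 11 called higher and 1 lower. Fibroblast markers summed to 5029 to 5734 against 2665 to 4586 CPM (3 of 7 called higher) and macrophage markers to 244 to 332 against 164 to 212 CPM (3 of 6 called higher). Of the 6 adipocyte markers 5 were lower and 1 was higher in Hmox2-/- ECs. Only Lep was called (-3.77, SE 0.36, adjusted p = 0.00192). With single EC libraries left out, 7 to 11 cardiomyocyte, 1 to 8 endothelial, 0 to 3 fibroblast and 1 to 5 macrophage markers were called. For adipocyte markers the count called was then 1 to 3. In heart tissue 5 of 5 erythroid markers were called higher, at 1152 to 1846 CPM summed in Hmox2-/- against 232 to 441 CPM in Hmox2+/+ mice. Of the cardiomyocyte markers there, 5 of 12 were called higher and 1 lower. Endothelial markers had 3 of 11 called higher and 1 lower, and macrophage markers 3 of 6 higher. Smooth muscle markers had 2 of 6 called higher and 1 lower, and 2 of 7 fibroblast markers were called lower. With single heart libraries left out, 6 to 10 cardiomyocyte, 3 to 5 endothelial and 5 erythroid markers were called. The same fits called 1 to 4 smooth muscle, 1 to 3 fibroblast and 2 to 4 macrophage markers. With all libraries in 1 fit, 1 cardiomyocyte, 2 endothelial, 1 smooth muscle and 0 fibroblast markers were called. The part of these cells in the complex I values was not tested.

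Among 22 genes for the upkeep and transcription of mitochondrial DNA, 2 were called lower and 6 higher in hearts of Hmox2-/- mice. The lower ones were Ppargc1b (-0.73, SE 0.17, adjusted p = 0.00778), a coactivator of mitochondrial biogenesis, and Gabpa (-0.41, SE 0.12, adjusted p = 0.0220), a transcription factor of nuclear genes for mitochondrial proteins. The higher ones included Mterf2 (0.64), Rnaseh1 (0.51) and the transcription elongation factor Tefm (0.50). Among 21 tested genes for processing and stability of mitochondrial RNA 9 were called, all higher, led by Hsd17b10 (0.67), a subunit of mitochondrial RNase P, Ptcd2 (0.51) and Slirp (0.50), which stabilizes mitochondrial mRNAs. In ECs 2 genes of the first list were lower, Ppargc1b (-1.54, SE 0.30, adjusted p = 0.0164) and Esrra (-0.63, SE 0.17, adjusted p = 0.0429), and 1 of the other list, Fastk (-0.61, SE 0.16, adjusted p = 0.0358). Over all genes 33.4% were called in heart tissue and 18.1% in ECs. The counts moved when single libraries were left out. The first list had 3 called in heart tissue without heart WT 1, 3 or 4 or heart KO 1 or 2, and 5 without heart WT 2. The calls of Gabpa and Rnaseh1 were each lost in 5 such fits and that of Tefm without heart WT 3 or heart KO 1. The other list had 5 called without heart KO 1, and Slirp lost its call without heart KO 1 or heart KO 2. In ECs the lists had 0 to 4 and 0 to 8 called, the highest counts without EC WT 3. Esrra and Fastk kept their EC calls only without EC WT 3, and Ppargc1b lost its call without EC KO 3.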

How the data were processed

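The authors pseudoaligned paired reads of oligo-dT-selected, strand-kept libraries with kallisto 0.44.0 at default settings, which do not use the strand. The deposited estimated counts and the deposited TPM values are given per transcript, 1 library at a time, and were not normalized between libraries. The methods name a GENCODE mouse index on GRCm39, while the submitters' processing notes list GRCh38.p13 and mm10. Which index was used is not settled, and the split between mt-Nd3 and Gm28438 depends on it. Each of the 118489 transcripts was assigned to a gene of GENCODE M39 by stable identifier (115191 matched), counts were summed per gene and rounded, and 0.747% to 1.01% of the counts of a library stayed unmatched. No mitochondrial rRNA or tRNA was listed. Nuclear copies were found by shared words of 31 bases. Total counts per library were 7268626 to 31619776.

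Genes kept by filterByExpr (minimum count 10) were scaled by TMM and tested with edgeR 4.0.16 (R 4.3.3), by the quasi-likelihood F-test within each tissue and for the tissue by genotype interaction, with Benjamini-Hochberg adjustment over all genes and a threshold of 0.05. The fits within the mitochondrial counts used the 13 mRNAs and Gm28438 as library size, without TMM. Shares and ratios were compared by exact permutation tests (scipy 1.17.1). The fits were tested on simulated data. Alternatives were DESeq2 1.42.0, other normalizations, no filter, length-scaled TPM, copies summed, the replicate number as a block, and each library left out in turn. Summing mt-Nd3 with Gm28438 alone was added after the data were seen. Named genes were the members, the other mitochondrial mRNAs, Hmox2, Ddx3y, the 3 genes with the largest called change per nuclear list, tissue and direction, and the 5 genes most like the summed members. The members, lists and tests were chosen with earlier results of these data known. The copies on chromosome 1 and the named marker genes were given for their sequence or as checks.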

Additional observations from a re-analysis of the deposited data

Results flagged for a closer look

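Of the 8 genes, 5 had a genotype difference that differed between heart tissue and ECs by the edgeR interaction test, each more negative in heart tissue. The difference of log2 fold changes was -1.29 for mt-Nd2, -1.72 for mt-Nd4, -2.04 for mt-Nd4l, -1.54 for mt-Nd5 and -1.49 for mt-Nd6, with adjusted p of 0.00862 to 0.0267. Over all genes 28.9% were called and 12.7% called in that direction. The calls of mt-Nd2 and mt-Nd5 were lost when EC WT 2, EC KO 2, heart WT 3, heart KO 1 or heart KO 2 was left out, mt-Nd2 also without heart WT 4 and mt-Nd5 without EC KO 3. These genes fell in heart tissue and were not called in ECs. The tissues also differed in extraction kit, and the kit and the tissue cannot be told apart. Heart WT 2 was the lowest heart WT library in the summed share of all counts, at 11.2% against 13.1%, 14.4% and 14.2%. It was also lowest in the share of mitochondrial counts, at 30.04% against 32.5%, 32.9% and 33.2%. The group is too small to judge whether this library stood apart.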

How the results depend on the processing

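The 7 mt-Nd genes, and Gm28438 through the filter, were called in heart tissue by DESeq2, under both other normalizations, without a filter, with length-scaled TPM, with the replicate block and without any single library, and 7 of the 8 in 1 fit over all libraries. In ECs DESeq2 called 2 members, and summing all copies or mt-Nd3 with Gm28438 alone left 0, in ECs also relative to the mitochondrial counts. Summed with Gm28438, mt-Nd3 turned from lower to 0.76 in ECs, 0.022 in heart tissue and, relative to the mitochondrial counts, 0.59 and 1.04 (0.58 and 1.00 with all copies summed). The EC share of mitochondrial counts changed sign without Gm28438 (-0.23, exact p = 0.7). mt-Nd5 in ECs, near 0, was at 0.074 with upper-quartile normalization, 0.0060 with genes outside mitochondrial DNA, 0.0091 with no filter and 0.049 with length-scaled TPM.

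Leaving out single libraries gave 3 to 6 members called in the interaction, 1 to 2 in ECs and 4 to 7 in heart tissue relative to the mitochondrial counts. It gave heart differences in share of all counts of -7.15 to -6.07 and in share of mitochondrial counts of -6.37 to -5.29 percentage points, with exact p of 0.0667 to 0.1, the smallest those sizes allow. EC log2 fold changes ran from -0.019 to 0.50 for mt-Nd2, -0.087 to 0.46 for mt-Nd4, -0.22 to 0.41 for mt-Nd5 and -0.011 to 0.66 for mt-Nd6. Relative to the mitochondrial counts they ran from -0.018 to 0.036 for mt-Nd2 and -0.0023 to 0.17 for mt-Nd6. The interaction of Gm28438 ran from -5.48 (without EC WT 2) to 5.06.

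The deviations of same-numbered libraries correlated at 0.223, 0.0784 and 0.0609 in ECs and -0.0798, 0.118 and 0.0624 in heart tissue, so the numbers were not taken to pair samples. With the replicate number as a block 2 members were called in the interaction (adjusted p of 0.106 for mt-Nd2, 0.0591 for mt-Nd4 and 0.0928 for mt-Nd5), Gm28438 was at -0.092 there and mt-Nd5 in ECs at 0.047. Same-numbered heart pairs differed by -6.14 points in share of all counts and -5.32 in share of mitochondrial counts (exact sign-flip p = 0.25, the smallest 3 pairs allow), and the block changed no other count of members called by over 1.5 times. The causes were not tested. With 3 or 4 libraries a group, EC intervals of about 1 on the log2 scale to either side limit what could be seen there.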

Other observations

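Over the 13 libraries, the genes outside mitochondrial DNA whose log2 CPM was most like that of the summed members were Wdr13, Clasp2, Nr3c2, Tdp2 and Cnot6l, with Pearson r of 0.97, 0.97, 0.97, 0.96 and 0.96 among 8746 genes. The libraries share tissue and genotype, so this describes their common levels and no test was made.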
